A study of Mus musculus with 2 samples.

Results

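The S100 proteins are a family of small calcium-binding proteins, and the genes described here are S100a1, S100a4, S100a6, S100a8, S100a9, S100a10, S100a11, S100a13, S100a14 and S100a16. They were chosen by gene symbol in the array's annotation, and the family was picked for the high signal of S100a6 in 1 of the sorted populations. Of the 10 listed genes, 9 had a probe, 1 each, among 16390 named genes, and S100a16 was not analysed here. Since S100a6 was chosen on these arrays, its values are a description and support nothing by themselves. Each comparison rests on 1 array, so none of the ratios has a replicate error and none was tested.

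The study compared 3 populations of cells sorted from the small intestinal epithelium of mice that carried 3 engineered alleles, an Atoh1-crePGR allele, the Lgr5-EGFP-IRES-creERT2 allele and a Rosa26-tdTomato reporter. The first population had tdTomato alone (tdTomato only), the second had tdTomato and EGFP (double positive), and the third had EGFP alone (EGFP only). All 3 populations came from mice injected with RU486 on 5 consecutive days and were collected 20 days after recombination, with cells of 4 mice pooled before sorting, and age and sex are not given in the sources used here. RU486 switches on a Cre made under the control of Atoh1, a gene needed for secretory cells, so that tdTomato marks Atoh1-expressing cells and their progeny. EGFP stands at the Lgr5 locus and marks crypt base stem cells, and this allele is known to be silent in part of the crypts, so that cells without EGFP can include Lgr5 cells. On each of 2 two-colour arrays, 1 tdTomato population carried the dye Cy3 and the EGFP-only population Cy5, and no dye swap was made.

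S100 proteins bind calcium through a pair of EF-hand loops and mostly act as dimers, which on binding calcium expose a surface for partner proteins such as annexins, p53 or cytoskeletal proteins. Some are also released and act outside the cell through receptors such as RAGE and TLR4. Most of the genes lie in 1 cluster on mouse chromosome 3, mixed with genes of the epidermal barrier. In the intestine the family is known for calbindin-D9k (S100g), which carries calcium through enterocytes, and for S100a8 and S100a9, whose dimer calprotectin is abundant in neutrophils and is used as a marker of gut inflammation.

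The RefSeq sequences before the start of 4 genes are shown because these genes stand for the range of values below: S100a6 had the highest ratio, its close neighbour S100a4 stayed near background, S100a11 was clearly measured in every population, and S100a9 lay at the edge of detection. Each run gives the 250 bases before the annotated start, 5′ to 3′, in GRCm38.p6. The windows are chr3:90612644-90612893 (plus strand) for S100a6, chr3:90603520-90603769 (plus strand) for S100a4, chr3:93520246-93520495 (plus strand) for S100a11 and chr3:90695722-90695971 (minus strand) for S100a9. Capitals mark matches, on either strand, to the TATA box TATAAA, the E-box CANNTG, the AP-1 motif TGANTCA, the TCF motif CTTTGAT or the TEAD motif GGAATG, with no overlap between the matches in these 4 windows.
S100a6: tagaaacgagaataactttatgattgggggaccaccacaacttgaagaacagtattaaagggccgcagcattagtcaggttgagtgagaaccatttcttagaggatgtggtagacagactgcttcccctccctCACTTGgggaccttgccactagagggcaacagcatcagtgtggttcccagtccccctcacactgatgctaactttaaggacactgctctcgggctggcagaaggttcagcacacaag
S100a4: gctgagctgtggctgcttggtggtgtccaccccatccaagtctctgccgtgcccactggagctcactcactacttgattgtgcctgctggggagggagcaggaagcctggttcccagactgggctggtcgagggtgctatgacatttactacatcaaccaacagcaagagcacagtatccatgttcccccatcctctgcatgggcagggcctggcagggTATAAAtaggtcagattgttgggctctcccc
S100a11: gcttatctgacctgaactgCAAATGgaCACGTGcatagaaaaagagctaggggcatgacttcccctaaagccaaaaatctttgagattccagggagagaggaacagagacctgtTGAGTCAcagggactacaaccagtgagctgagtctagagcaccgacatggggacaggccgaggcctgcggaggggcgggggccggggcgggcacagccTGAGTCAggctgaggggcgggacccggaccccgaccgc
S100a9: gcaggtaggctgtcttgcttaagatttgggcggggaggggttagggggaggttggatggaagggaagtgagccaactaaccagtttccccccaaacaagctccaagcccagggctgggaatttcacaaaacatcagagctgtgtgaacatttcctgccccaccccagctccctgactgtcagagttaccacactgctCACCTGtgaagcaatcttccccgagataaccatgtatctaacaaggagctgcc

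Of these motifs the S100a6 window held only 1 E-box, CACTTG, where CANNTG is the general core of basic helix-loop-helix factors. Which of these factors prefer this form was not looked at. At least 1 E-box stands in 66.2% of 32851 annotated windows of the same length. The S100a4 window held 1 TATA box, found in 12.4% of windows. The S100a11 window held 2 AP-1 motifs, found in 6.75% of windows, and 2 E-boxes, and the S100a9 window 1 E-box. The TCF and TEAD motifs, present in 3.2% and 12.6% of all windows, had no match in these 4 windows. The table used held windows for 8 of the 10 listed genes. A match in these letters is a description and not a binding site.

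Spot medians are in arbitrary units of the scanner, and background was the level that a spot had to pass to be called measured, the mean plus 2 SD of the 2736 blank spots of its channel. This limit was 85.4 for tdTomato only, 82.2 for double positive, and 75.7 and 74.1 for EGFP only on the tdTomato-only and double-positive arrays. Brightness is not compared between probes, nor directly between dyes, and ratios were corrected for dye by a loess curve fitted within each array. Summed intensities given below are raw spot values, so a sum in Cy3 is not to be compared with a sum in Cy5. The EGFP-only population was measured on both arrays, and over 15640 probes its log2 intensities differed with an SD of 0.084, which is technical spread alone. The label of epithelium was checked with 12 markers, 8 of them on the array. Of these, 7 were above background in every channel, including Epcam and Cdh1, and Krt19 was above background in the Cy3 channels alone. Lgr5 had a log2 ratio of −0.89 in tdTomato only over EGFP only, 0.26 in double positive over EGFP only (−0.26 with median centring in place of loess) and −1.14 in tdTomato only over double positive.

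On each array 7 of the 9 members with a probe were above background in both channels and could be given a ratio. S100a4 and S100a9 were the others. Because a gene had to be visible in every channel to be counted, the counts below are not counts of the whole family. In tdTomato only over EGFP only, 5 of the 7 members (S100a1, S100a6, S100a10, S100a11 and S100a13) passed 2-fold upward and none downward, where 6.15% of 11381 genes did so upward and 1.19% downward. The S100 genes were chosen on this comparison, so nothing is read from that count. In double positive over EGFP only, 1 of 7, S100a6, was 2-fold higher and none lower, against 5.1% and 0.34% of 11774 genes. Between the tdTomato populations, 2 of 7, S100a6 and S100a13, were 2-fold higher in tdTomato only and none lower, against 0.813% and 0.274% of 11311 genes. This count too holds S100a6, picked for its signal in tdTomato only, so nothing is read from it. The median log2 ratio of the measured members was 1.27 in the first comparison, 0.54 in the second and 0.61 in the third, and over all genes it was −0.01, −0.01 and −0.02. The first 2 comparisons share the EGFP-only population and the third is the difference between them, so the 3 are not independent of each other.

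The counts depended on how dim spots and the dye difference were treated. A ratio was given for 8 members in the authors' deposited table. There 5 of 8 in tdTomato only over EGFP only (S100a1, S100a6, S100a9, S100a13 and S100a14) passed 2-fold upward, against 12.8% of genes. In double positive over EGFP only 2 of 8 did, against 12.2% of genes, and between the tdTomato populations 4 of 8, against 1.76%. With median centring in place of loess the members counted were 2, 0 and 3 of 7 in these comparisons, against 3.58%, 3.09% and 0.769% of genes. With the blank mean subtracted they were 6, 2 and 4 of 7, against 11.1%, 10.4% and 1.76%. With a smaller offset of 10 they were 6, 2 and 3 of 7, against 8.86%, 7.66% and 1.15%. S100a6 passed 2-fold in tdTomato only over each other population in all of these settings.

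**Figure D1:**
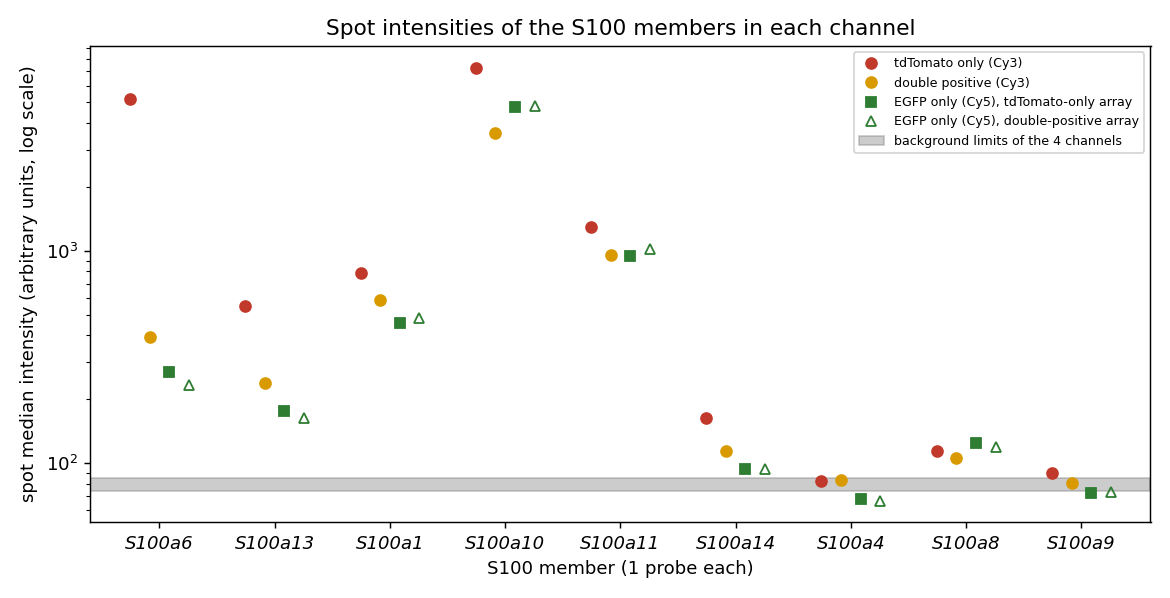
Spot median intensity on a log axis for the 9 S100 members with a probe, 1 point per channel: tdTomato only and double positive in Cy3, EGFP only in Cy5 on each array; the grey band spans the background limits of the 4 channels (74.1 to 85.4). S100a6 stands at 5213 in tdTomato only and 393 in double positive, while S100a4 and S100a9 lie in or beside the band.

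S100a6 encodes calcyclin, a small dimer that is induced when cells re-enter the cycle or are stressed and that binds the calcyclin-binding protein CACYBP. Its spot read 5213 in tdTomato only and 393 in double positive, and 268 and 234 in EGFP only on the tdTomato-only and double-positive arrays. The tdTomato-only population alone was far above the others, and the double-positive value lay closer to EGFP only. The log2 ratio was 4.92 in tdTomato only over EGFP only, a 30.3-fold difference and the fourth highest among 11381 genes. In double positive over EGFP only it was 1.22, or 2.32-fold, at place 455 of 11774 genes. Between the tdTomato populations, where the dye and the EGFP-only level cancel, it was 3.70, second of 11311 genes. The ratio of the Cy3 spots, both read in the same dye, was 13.3.

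The order of the populations for S100a6 was the same in all 8 alternatives. Over the authors' deposited ratios and the other alternatives, the log2 ratio ran from 4.36 to 5.28 for tdTomato only over EGFP only and from 3.56 to 3.77 for tdTomato only over double positive. For double positive over EGFP only it ran from 0.80 to 1.52, and the lowest, with median centring, is under 2-fold. The EGFP-only measurements of S100a6 on the arrays differed by 0.21 on the log2 scale, more than the technical SD. This repeat of 1 pooled sample shows technical spread alone, so it does not measure the spread expected between pools.

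S100a13 encodes a protein that takes part in the export of fibroblast growth factor 1 and interleukin 1 alpha, which lack a signal peptide. Its spot read 547 in tdTomato only, 238 in double positive, and 176 and 163 in EGFP only on the tdTomato-only and double-positive arrays. The populations had the same order as for S100a6, with smaller steps. The log2 ratio was 2.10 (4.28-fold) in tdTomato only over EGFP only, 0.92 (1.89-fold) in double positive over EGFP only and 1.18 (2.27-fold) in tdTomato only over double positive. In the authors' deposited table the same values were 2.43, 1.25 and 1.18. S100a6 and S100a13 were the members at least 2-fold higher in tdTomato only than in each of the other populations, 2 of 7, where 0.743% of 11308 genes were. Since the family was picked for S100a6 in tdTomato only, nothing is read from this count.

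S100a10 encodes p11, which has lost calcium binding and is held in the active form. With annexin A2, encoded by Anxa2, it forms a heterotetramer at the membrane. Its spot read 7297 in tdTomato only, 3583 in double positive, and 4736 and 4808 in EGFP only on the tdTomato-only and double-positive arrays. The log2 ratio was 1.44 (2.72-fold) in tdTomato only over EGFP only, 0.47 (1.39-fold) in double positive over EGFP only and 0.97 (1.96-fold) in tdTomato only over double positive. The first of these was 0.93 (1.91-fold) in the authors' deposited table and 0.63 with median centring, both under 2-fold. The second was 0.05 in the authors' deposited table and −0.37 with median centring. The difference between the tdTomato populations moved less, from 0.88 to 1.13 over the settings.

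Anxa2 was measured in every channel, at 5152 in tdTomato only, 2356 in double positive, and 2936 and 3022 in EGFP only on the tdTomato-only and double-positive arrays. Its log2 ratios were 1.57, 0.45 and 1.11 in the order of comparisons used for S100a10, and 1.13, 0.11 and 1.02 in the authors' deposited table. The distance between the genes in the plane of both arrays' log2 ratios was 0.12, so that Anxa2 was the gene at place 10 of 11308 by closeness to S100a10. Its place was looked up after its values were seen. Among the 4 closest genes, Mxd1 was nearest (a repressor of the MYC network, 1.48 in tdTomato only and 0.43 in double positive over EGFP only). Next came Map3k6 (a stress kinase, 1.49 and 0.51) and Lypd8 (a secreted protein that keeps bacteria from the mucosa, 1.49 and 0.41). Cyp3a11 (a drug-metabolising cytochrome, 1.36 and 0.42) followed. This closeness depended on the processing. By the authors' deposited ratios, Mxd1 had 2.57 and 1.04, Map3k6 2.67 and 1.23, and Cyp3a11 2.96 and 1.52. The values there were 0.86 and −0.15 for Lypd8, and 0.93 and 0.05 for S100a10. By those ratios Lypd8 and Anxa2 stayed near S100a10, and Mxd1, Map3k6 and Cyp3a11 did not.

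S100a1 encodes a protein best known in heart muscle, where it binds the ryanodine receptor. Its spot read 785 in tdTomato only, 588 in double positive, and 457 and 480 in EGFP only on the tdTomato-only and double-positive arrays. The log2 ratio was 1.27 (2.41-fold) in tdTomato only over EGFP only, 0.83 (1.78-fold) in double positive over EGFP only and 0.44 (1.35-fold) in tdTomato only over double positive. Over the settings the first ran from 0.79 to 1.40, and the lowest, with median centring, is under 2-fold.

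S100a11 encodes calgizzarin, a partner of annexin A1 that takes part in membrane repair. Its spot read 1301 in tdTomato only, 959 in double positive, and 941 and 1021 in EGFP only on the tdTomato-only and double-positive arrays. The log2 ratio was 1.02 (2.03-fold) in tdTomato only over EGFP only, just past 2-fold, 0.54 (1.45-fold) in double positive over EGFP only and 0.48 (1.40-fold) in tdTomato only over double positive. The first was 0.79 in the authors' deposited table, 0.85 after quantile normalization and 0.47 with median centring, all below 2-fold, and the second was −0.05 with median centring. Anxa1 was near background, at 85.6 in tdTomato only and 88.3 in double positive, with 72.6 and 74.9 in EGFP only on the same arrays.

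S100a14 encodes an epithelial member whose calcium-binding loops are degenerate. Its spot was dim, at 163 in tdTomato only, 114 in double positive and 94.1 in EGFP only on each array. The log2 ratio was 0.95 (1.94-fold) in tdTomato only over EGFP only, just under 2-fold, 0.34 (1.27-fold) in double positive over EGFP only and 0.61 (1.53-fold) in tdTomato only over double positive. In the authors' deposited table, where judging from the values a blank level was subtracted, the first was 2.01, or 4.03-fold. Above the trimmed mean of the blanks the tdTomato-only spot was 84.2 units and the EGFP-only spot 25.8 units, while the offset of 50 used here shrinks such dim ratios. S100a14 is also an older symbol of S100a11 in the RefSeq synonyms, and the probe was taken under the current symbol.

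**Figure D2:**
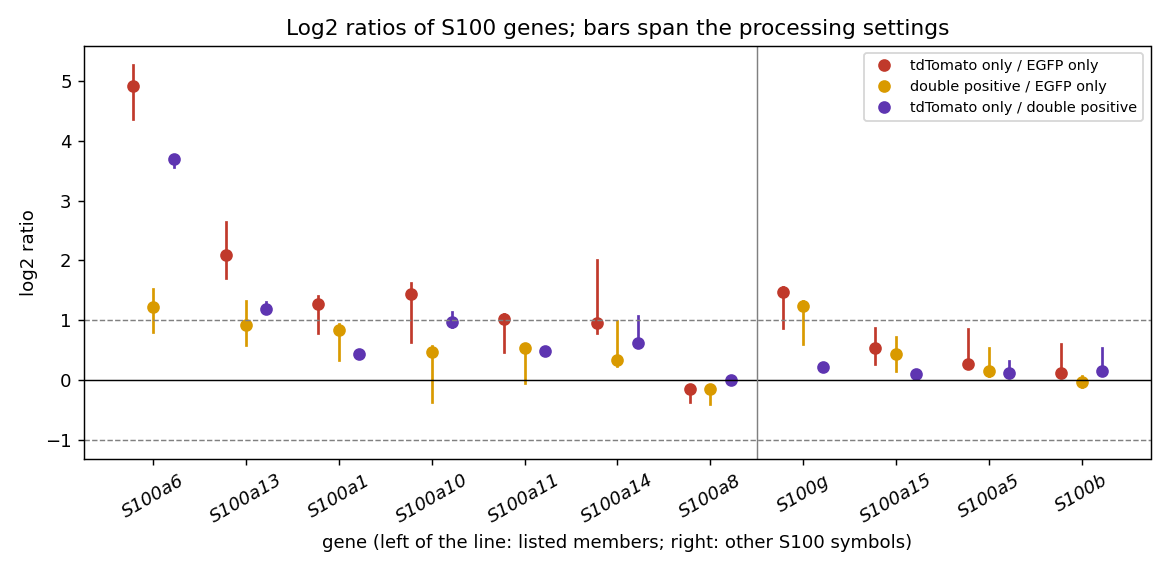
Log2 ratio of each S100 gene with a value in all 3 comparisons; points give the value reported and vertical bars the lowest and highest value over the processing alternatives, with dashed lines at 2-fold. S100a6 lies at 4.92, 1.22 and 3.70, S100a8 lies at −0.15, −0.15 and 0.00, and the bar of S100a10 for double positive over EGFP only crosses 0.

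S100a8 and S100a9 encode the chains of calprotectin. The S100a8 spot read 114 in tdTomato only, 106 in double positive, and 124 and 119 in EGFP only on the tdTomato-only and double-positive arrays. Its log2 ratio was −0.15 in tdTomato only over EGFP only and −0.15 in double positive over EGFP only, 1.11-fold lower in each, and 0.00 in tdTomato only over double positive. This was the measured member below 0 in both of the first comparisons. The S100a9 spot read 89.7 in tdTomato only, above the limit of 85.4, and 80.7 in double positive, below its limit. In EGFP only it read 72.5 and 73.1, below both limits. The bound that follows is at least 1.08-fold higher in tdTomato only, close to no difference.

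For S100a9 the authors' deposited table gives a log2 ratio of 1.76 in tdTomato only and −0.27 in double positive, each over EGFP only. On the tdTomato-only array that ratio comes from 11.3 units above the trimmed mean of the blanks in Cy3 and 4.14 units in Cy5, where the SD of the blanks was 3.41 and 3.49. On that array S100a8 had a deposited log2 ratio of −0.35, so the chains of calprotectin differed in direction there, and on the double-positive array it had −0.37. Of 18 neutrophil markers 17 were on the array. On the tdTomato-only array 7 of them were above background in both channels and 8 in neither, among the last Mpo, Prtn3, Camp, Csf3r and Cxcr2. On the double-positive array 10 were above background in both channels. The raw summed spot intensity of the 17 was 1654 in tdTomato only and 1598 in double positive, with 1446 and 1457 in EGFP only on the same arrays. These sums hold the blank level, whose mean on the tdTomato-only array was 78.6 in Cy3 and 68.7 in Cy5. They are thus not compared between dyes. None of the measured markers was 2-fold apart in either comparison, and the highest log2 ratios were those of Ly6g (0.42 in tdTomato only) and Retnlg (0.64 in double positive). Their median over EGFP only was 0.23 in tdTomato only and −0.02 in double positive. By the authors' deposited ratios, over 11 markers, it was 0.59 and 0.03.

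S100a4, known from fibroblasts and immune cells and from its binding to non-muscle myosin, read 82.1 in tdTomato only, below the limit of 85.4, and 82.9 in double positive, just above the limit of 82.2. In EGFP only it read 67.9 and 66.6, below background on both arrays. The bound in double positive was at least 1.04-fold higher. S100a4 was thus above background in double positive alone, and by a small margin. Of 16 markers of fibroblasts, muscle and endothelium, all on the array, 5 were above background in both channels of the tdTomato-only array and 6 in both channels of the double-positive array. None of these was 2-fold apart. On the tdTomato-only array 5 more were above background in tdTomato only alone and 0 in EGFP only alone. Over all genes 6.35% and 1.23% were. On the double-positive array 4 were so in double positive alone and 1 in EGFP only alone, against 8.44% and 0.738% of genes. The median log2 ratio over EGFP only was −0.11 in tdTomato only and 0.09 in double positive. By the authors' deposited ratios it was 0.71 and 0.265. The raw summed intensity of the 16 was 1496 in tdTomato only and 1512 in double positive, with 1308 and 1324 in EGFP only on the same arrays. The sums hold the blank level and are not compared between dyes.

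Other S100 symbols on the array were S100g, S100a3, S100a5, S100b and S100a15. S100g, calbindin-D9k, read 2056 in tdTomato only, 1702 in double positive, and 1133 and 1170 in EGFP only on the tdTomato-only and double-positive arrays. Its log2 ratio was 1.47 (2.76-fold) in tdTomato only over EGFP only, 1.24 (2.36-fold) in double positive over EGFP only and 0.23 (1.17-fold) in tdTomato only over double positive. Its difference between the tdTomato populations was small beside that of S100a6, which was not tested. S100a5, S100b and the probe named S100a15 had log2 ratios of 0.27, 0.12 and 0.54 in tdTomato only over EGFP only and 0.14, −0.04 and 0.44 in double positive over EGFP only. S100a15 is a synonym of both S100a7a and S100a14, and was left under the annotation's name. S100a3 had −0.10 in double positive and was not above background in tdTomato only. S100pbp, which encodes a protein that binds S100 proteins and is not a family member, had 0.13 in tdTomato only and −0.04 in double positive.

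On chromosome 3 the cluster runs over 101 annotated genes from S100a1 to S100a10, with S100a4, S100a5 and S100a6 at places 9, 10 and 11. The steep difference of S100a6 was not shared by these neighbours: S100a5 had log2 ratios of 0.27 in tdTomato only and 0.14 in double positive over EGFP only, and S100a4 was near background. Of 34 genes of the span on the array that are not S100 genes, 11 were above background in both channels of the tdTomato-only array, and their median log2 ratio was 0.07. On the double-positive array 10 were, with a median of −0.04. Sprr2b, a gene of cornified envelope proteins, was the only one past 2-fold, at 4.76 in tdTomato only and 2.69 in double positive over EGFP only and 2.07 between the tdTomato populations. Lelp1 followed at 0.59 in tdTomato only. Of the other Sprr2 genes, Sprr2d had −0.10 in tdTomato only and −0.10 in double positive, and cross-hybridization among these near-identical genes was not tested.

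By distance in the plane of both log2 ratios, the gene closest to S100a6 among 11308 was Smarcd3, a subunit of the SWI/SNF chromatin remodelling complex, with 4.24 in tdTomato only and 0.53 in double positive over EGFP only. Its distance to S100a6 was 0.96. Next came Bcas1 (3.68 and 1.34), the transmembrane tryptase gene Tpsg1 (3.64 and 1.25), Sprr2b (4.76 and 2.69), and Rep15, which encodes a RAB15 effector (4.11 and 2.52). The kallikrein genes Klk1b7-ps (3.47 and 1.84) and Klk1b11 (3.35 and 1.65) and the regulator of G-protein signalling Rgs2 (3.33 and 1.32) followed, and Klk1b11, the farthest of the 8, had a distance of 1.63. Bcas1, Tpsg1 and Rep15 are among the 13 goblet cell markers on the array. That list was made with earlier results of these data known, so nothing is read from the overlap. Smarcd3 and S100a6 were the 2 genes with a log2 difference between the tdTomato populations as large as that of S100a6.

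Partner proteins, annexins foremost, were mostly not 2-fold apart. Of 22 listed, 20 were on the array. On the tdTomato-only array 15 were measured against EGFP only, with a median log2 ratio of 0.27. Of these, 2 passed 2-fold upward and none downward, where 6.15% and 1.19% of all genes did. The 2 were Anxa2 and Anxa5 (1.19), an annexin that binds phosphatidylserine, followed by the membrane linker Ezr (0.76). In double positive over EGFP only none of 16 was 2-fold apart and the median was 0.10, with Anxa5 at 0.82, the myosin gene Myh9 at 0.60 and the translation-associated Tpt1 at −0.56. Between the tdTomato populations the median was 0.03 over 15 genes, with Anxa2 at 1.11, Anxa4 at 0.81 and the scramblase gene Plscr1 at 0.54. Cacybp, the partner of S100a6, did not share its direction: its log2 ratio was −0.59 in tdTomato only and −0.55 in double positive over EGFP only, and −0.04 between the tdTomato populations. It was named among the partners after its values were seen.

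Receptors of extracellular S100 proteins and their adaptors showed no 2-fold difference in any comparison. All 12 listed genes were on the array. The median log2 ratio was −0.05 over 10 measured genes in tdTomato only over EGFP only, −0.04 over 9 in double positive over EGFP only and −0.10 over 9 in tdTomato only over double positive. The lipopolysaccharide co-receptor Cd14 had −0.88 in tdTomato only and −0.60 in double positive, the syndecan gene Sdc4 −0.85 and −0.04, the scavenger receptor Cd36 0.77 and 0.41, the adhesion molecule Alcam 0.70 and 0.79, and Bsg 0.50 and 0.50. Tlr4 was not above background in any channel. Ager, which encodes RAGE, was at the edge of detection, with a spot of 88.2 in tdTomato only and 81.5 in double positive.

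S100a6 is also read as a marker of the fetal-like state that intestinal epithelium takes on after injury, and 27 other genes of that state were listed, 21 of them on the array. On the tdTomato-only array 12 were measured against EGFP only, with a median log2 ratio of 0.18. Of these, 3 passed 2-fold upward and none downward, where 6.15% and 1.19% of all genes did. The 3 were Anxa3 (2.15), Ly6e (1.43) and the claudin gene Cldn4 (1.26). In double positive over EGFP only Ly6e (1.24) was the 1 gene of 14 past 2-fold, and the median was 0.10. Over all genes 5.1% were 2-fold higher there and 0.34% lower. After Ly6e came Cldn4 (0.93) and the cathepsin gene Ctsd (0.70). Between the tdTomato populations the median was 0.11 over 12 genes, and Anxa3 stood out at 2.13, with spots of 389 in tdTomato only and 113 in double positive. The hyaluronan receptor Cd44 ran the other way, at −0.97 in tdTomato only and −0.65 in double positive over EGFP only and −0.32 between the tdTomato populations. The list's median in double positive was −0.07 with median centring, and between the tdTomato populations it was −0.0031 without the filter on dim probes. Il33, an alarmin gene named after its values were seen, read 142 in tdTomato only and 90.3 in double positive, and was below background in EGFP only at 73.0 and 72.1, at least 2.06-fold and 1.13-fold higher. Clu, a gene that defines that state in mouse, was looked up apart from the rule and had 0.11 in tdTomato only and 0.42 in double positive.

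Markers of several cell types differed together with the S100 genes, and in bulk samples fewer cells of a type and less RNA per cell cannot be told apart. Goblet cell markers had a median log2 ratio of 3.54 in tdTomato only over EGFP only (11 of 12 at least 2-fold higher), 2.18 in double positive over EGFP only (11 of 13) and 1.42 in tdTomato only over double positive (7 of 11). Over all genes 6.15%, 5.1% and 0.813% were at least 2-fold higher in the same order. Zg16 had 4.57, 2.18 and 2.40 in these comparisons, but its spot was saturated in tdTomato only, so that 4.57 and 2.40 are lower limits. Tff3 was saturated there too, and Spink4 in both tdTomato populations. Among the Paneth cell markers Itln1, Ang4 and Pla2g2a were saturated in both, and Mmp7 in double positive. The goblet and Paneth cell sums, and their ratios over EGFP only, can thus be too low. Between the tdTomato populations the ratio of Tff3 can be too low and that of Mmp7 too high. The summed intensity of the goblet cell markers was 307733 in tdTomato only and 147729 in double positive, with 44619 and 51186 in EGFP only on the same arrays. That of the Paneth cell markers was 351508 in tdTomato only and 379799 in double positive, with 53654 and 51671 in EGFP only. Enterocyte markers had medians of 2.37, 1.96 and 0.32, with Apoa1 at 3.61 in tdTomato only. Their summed intensity was 60253 in tdTomato only and 29453 in double positive, with 11661 and 10768 in EGFP only. Enteroendocrine markers had medians of −0.31, −0.89 and 0.73, and tuft cell markers −0.06, −0.47 and 0.22. Paneth cell markers had medians of 4.25, 4.48 and −0.33, and stem cell markers −1.16, −0.30 and −0.55.

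Immune markers ran differently. T cell and intraepithelial lymphocyte markers had medians of 1.38 in tdTomato only over EGFP only, 2.70 in double positive over EGFP only and −1.02 in tdTomato only over double positive, with all 11 measured below 0 in the last and Gzma at −1.75. Their summed intensity was 6792 in tdTomato only and 14043 in double positive, with 2557 and 2633 in EGFP only. Macrophage and dendritic cell markers did not run one way. Over EGFP only, 1 of 9 measured was at least 2-fold higher in tdTomato only, where 5 were below 0, and 3 of 10 in double positive, where 5 were below 0. Among all genes the shares 2-fold higher were 6.15% and 5.1%. C1qb had the highest ratios of these markers, 3.30 in tdTomato only and 3.62 in double positive. The medians of the markers were −0.06, 0.08 and −0.28 in the 3 comparisons, but 0.49, 1.08 and −0.34 in the authors' deposited table, and 0.52 in double positive with the blank mean subtracted. Their raw summed intensity was 5033 in tdTomato only and 5938 in double positive, with 8485 and 8571 in EGFP only, and is not compared between dyes. Of 4 glial markers on the array, 2 were measured and none was 2-fold apart, and S100b, which glia are known to express, was dim, at 103 in tdTomato only and 92.0 in double positive, with 88.5 and 87.2 in EGFP only on the same arrays. The part of these cell types in the S100 values was not tested.

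**Figure D3:**
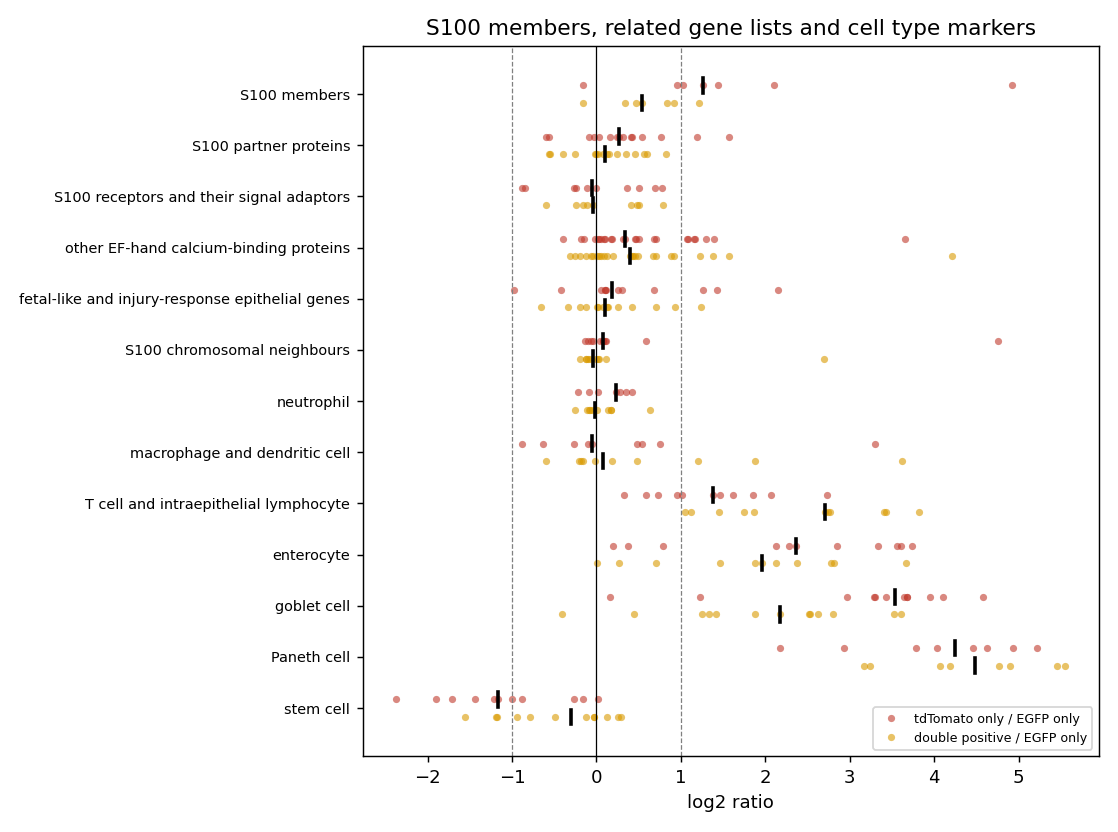
Log2 ratio of each measured gene (points) and the median (black bar) for the S100 members, the related lists and the cell type markers, in tdTomato only over EGFP only and in double positive over EGFP only, with dashed lines at 2-fold. The S100 members, picked for S100a6 in tdTomato only, have medians of 1.27 and 0.54, from which nothing is read. Their partner proteins have 0.27 and 0.10 and the receptors −0.05 and −0.04. The medians are 3.54 and 2.18 for goblet cell, 4.25 and 4.48 for Paneth cell and 2.37 and 1.96 for enterocyte markers.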

How the data were processed

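RNA of the sorted cells was amplified, given Cy3 or Cy5, and put on 2 Toray arrays, per the labels' protocols. The deposited intensity values are spot medians in both dyes from each scan, combined over 3 scanner gains, per the file headers, and the blanks lie well above 0. The deposited log2 ratios are normalized values with EGFP only as denominator, per the labels, and judging from the values they had a blank level subtracted and were centred on a median of 0.

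Intensities of 27456 spots went through normexp with an offset of 50 and then loess within each array, with weight 0 for marked spots and for 3982 controls (limma 3.58.1, R 4.3.3). Log2 ratios of probes above background (blank mean plus 2 SD) in every channel of a comparison were averaged by gene, and 2-fold was the size counted. The third comparison is the difference of the arrays' log2 ratios. No S100 spot was saturated. Where a probe was above background in 1 channel alone, the bound divides the bright level by either the dim spot's level or the lowest measured one, whichever is higher, after loess and Aquantile, and is open to dye bias. The number of arrays limits the precision: there was 1 array per comparison, so no test was made. Symbols came from the platform's annotation (16632 probes named, 6842 without a name here), updated through RefSeq GRCm38.p6, which also gave the sequences.

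The members and lists were chosen with earlier results of these data known. The genes named were all S100 genes, up to 3 genes of each list and 2 markers of each cell type with the largest ratio of either sign, the 8 genes nearest to S100a6, the 4 nearest to S100a10, and Lgr5. A gene so named may be given in other comparisons, and markers at or under background are named. Anxa1, Cacybp, Ager, Tlr4, Il33, Clu, Sprr2d and Cdh1 were named after their values were seen. The steps were tested on simulated arrays. The alternatives were the deposited ratios, median centring, blank subtraction, quantile normalization, an offset of 10, no filter, a limit of 3 SD and the brightest probe.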

Additional observations from a re-analysis of the deposited data

How the results depend on the processing

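For double positive over EGFP only, the count of members at least 2-fold higher, 1 as reported, was 0 with median centring and 2 in the deposited ratios, after blank subtraction and with an offset of 10. For tdTomato only over EGFP only, 5 as reported, it was 2 with median centring, which left S100a6 and S100a13. It was 4 after quantile normalization, and 6 after blank subtraction and with an offset of 10. For tdTomato only over double positive, 2 as reported, it was 4 after blank subtraction and in the deposited ratios. There it was 3 with median centring, after quantile normalization and with an offset of 10. The median log2 ratio of the members in double positive over EGFP only, 0.54, was 0.23 with median centring, 0.93 with the blank mean subtracted, 0.39 after quantile normalization and 0.63 with the smaller offset. In tdTomato only over EGFP only, 1.27, it was 1.465 in the deposited ratios, 0.79 with median centring, 1.62 with the blank mean subtracted, 1.13 after quantile normalization, 1.54 with the smaller offset and 1.02 without the filter. Between the tdTomato populations, 0.61, it was 0.95, 1.07, 0.91 and 0.48 in the deposited ratios, with the blank mean subtracted, with the smaller offset and without the filter. The filter alternatives change which genes enter, and median centring moved the median of all genes to −0.21, against −0.01 as reported, in each comparison with EGFP only; otherwise the cause was not tested. Over all genes in double positive over EGFP only, 601 were at least 2-fold higher and 40 lower as reported, 364 and 740 with median centring, and 1516 and 435 in the deposited ratios. In tdTomato only over EGFP only these were 700 and 135, 407 and 850, and 1595 and 864. No paired analysis was possible because each population is 1 pooled sample on 1 array per comparison. Signal over background limits the ratios of S100a4, S100a8, S100a9 and S100a14, whose spots were dim.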

Other observations

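Of 29 other EF-hand calcium-binding proteins listed, 26 were on the array and 25 were measured in each comparison. Against EGFP only, 7 passed 2-fold upward in tdTomato only and none downward, where 6.15% and 1.19% of all genes did. Their median log2 ratio was 0.34. In double positive 4 passed upward and none downward, where 5.1% and 0.34% of all genes did, and the median was 0.40. Both medians depended on the dye correction: with median centring they were −0.02 in tdTomato only and −0.13 in double positive, and in the authors' deposited ratios 0.27 and 0.20. Between the tdTomato populations none of 25 was 2-fold apart and the median was 0.01, which the authors' deposited ratios put at −0.06. Nucb2, which encodes nucleobindin 2, the precursor of nesfatin-1, was highest, with spots of 2218 in tdTomato only and 2952 in double positive and of 262 and 258 in EGFP only on the same arrays. Its log2 ratio was 3.66 in tdTomato only and 4.21 in double positive over EGFP only, and −0.55 between them, so its order differed from that of S100a6. Mcfd2, a cargo receptor subunit of early secretion, had 1.39 and 1.38, and the brush border fimbrin gene Pls1 1.29 in tdTomato only. The protease gene Capn2 had 1.57 in double positive. Chp2 (0.88) and Lcp1 (−0.82), the fimbrin of leukocytes, were farthest apart between the tdTomato populations.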
